A study of Homo sapiens with 2 samples.

Results

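The claudin genes and the occludin gene were examined in a lung adenocarcinoma line and its gefitinib-resistant derivative. The set held 10 genes, chosen by symbol, of the 20985 genes in the deposited table: CLDN1, CLDN2, CLDN3, CLDN4, CLDN7, CLDN12, CLDN15, CLDN16, CLDN23 and OCLN. Polyadenylated RNA was sequenced from parental HCC827, an established line that carries an activating EGFR mutation, and from HCC827 ZDR3, which tolerates gefitinib, an inhibitor of the EGFR kinase. Gefitinib was started at 10 nM, stepped up 3-fold every 1 month and ended at 1 µM, and 3 colonies were then isolated. The labels do not say whether ZDR3 is 1 of these colonies or whether drug was in the medium at harvest. Each group has 1 library, so no difference below has a replicate check, no test was made, and the spread between cultures is unknown.

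Tight junctions seal the space between neighbouring epithelial cells near their apical border. Claudins are membrane proteins whose extracellular loops pair between adjacent cells. Some of them tighten the barrier, and others form channels through which small ions and water pass between cells. Occludin belongs to a different protein family with a MARVEL domain and regulates the junction, while cytoplasmic scaffolds such as ZO-1 tie the strands to actin. The mix of claudins differs between epithelia and sets which ions can cross them.

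Levels are given in normalised reads, where 1 unit is taken to be 143 parental or 138 resistant reads. They are not divided by gene length and are compared here between libraries for 1 gene at a time, unless a level per kb is named. The log2 ratio is resistant over parental, with 1 unit added to each level. A gene was counted as expressed if it reached 1 unit in either library, and as higher or lower if its log2 ratio was at least 1 in size. Ratios without the added unit are given with exact 95% binomial intervals (Clopper-Pearson), which cover counting error alone. With the smallest step between values taken as 1 read, the libraries held 257192607 and 243549869 gene reads. All 10 genes had reads in both libraries, and 9 were expressed. The exception was CLDN16.

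Of the 8 expressed genes among 9 lung adenocarcinoma markers, 7 were lower in ZDR3. That is 87.5%, beside 9.68% of all expressed genes. The expressed marker not counted as lower was the keratin KRT7, at 2615 in parental cells and 1990 in ZDR3 (log2 ratio -0.39). EPCAM, which was lower, was at 527 and 62.4. The surfactant gene SFTPB was under 1 unit in both libraries. Of the leukocyte markers 1 of 7 was expressed, CD79A at 1.02 in the resistant library. Of the fibroblast markers 1 of 7 was expressed, COL1A1 at 9.15 in the parental library, and none of the 5 endothelial markers found in the table was. The summed level of these 3 lists ranged from 0.553 to 9.54 in parental cells and from 0.124 to 1.95 in ZDR3. In RNA from a whole culture, fewer cells that express a gene and less RNA per cell cannot be told apart.

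The claudins split between the directions. Of the 9 expressed genes 3 were higher in ZDR3, CLDN1, CLDN2 and CLDN23, and 4 were lower, CLDN3, CLDN4, CLDN7 and CLDN12. These are 33.3% and 44.4% of the expressed genes of the set. Over all 13777 expressed genes, 10.6% were higher and 9.68% lower. The median log2 ratio of the 9 expressed genes was -0.87, beside -0.03 over all expressed genes. It depends on the minimum level, since it was -0.13 over all 10 genes, with CLDN16 included. The remaining expressed genes, CLDN15 and OCLN, lay just short of the limit on the log2 scale. The plot of levels in both libraries shows all 10 genes in the order of their log2 ratios.

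**Figure D1:**
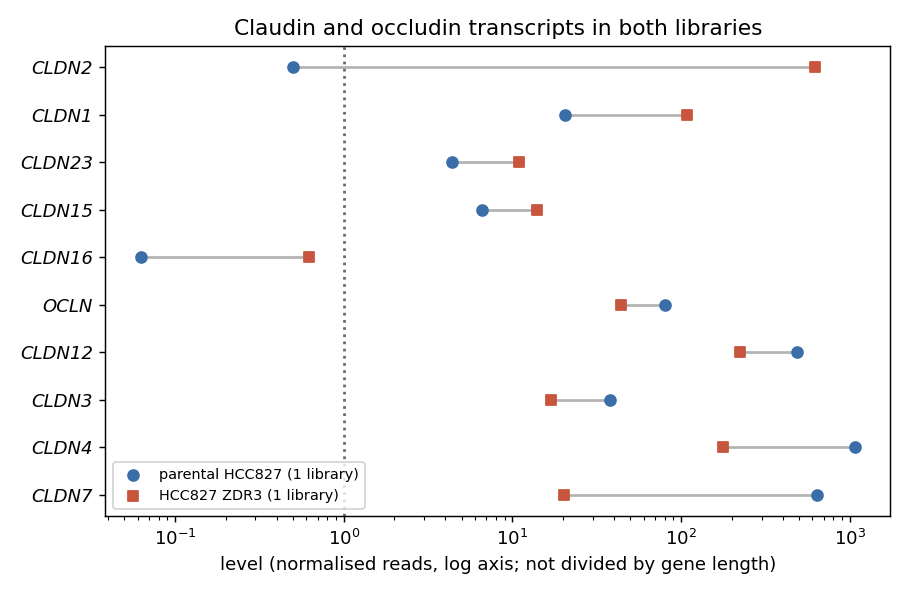
Level of each claudin and of occludin (x axis, normalised reads on a log axis, not divided by gene length) in the parental library (circles) and the ZDR3 library (squares). Each point is 1 library and the dotted line is the minimum of 1 unit. CLDN2 moves from 0.504 to 618, while CLDN4 and CLDN7 start at 1070 and 641 and are the lowest by ratio.

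Among the claudins known as channels, CLDN2 (ENSG00000165376) differed most. Claudin-2 forms a channel for cations and water and is typical of leaky epithelia such as the proximal tubule of the kidney. Its level was 0.504 in parental cells, from 72 reads, and 618 in ZDR3, from 85017 reads. The gene was thus under the minimum of 1 unit in parental cells and far above it in ZDR3. The resistant over parental ratio was 1226, with a counting interval of 973 to 1567, and the log2 ratio of 8.68 ranked 2 from the top of the 13777 expressed genes. In GENCODE release 29 the exons of CLDN2 share 341 bases, 10.0% of their length, with the opposite-strand gene RIPPLY1, which was at 0 in parental cells and 0.0509 in ZDR3. MORC4, which spans the locus on the other strand without sharing exon bases, was at 47.7 and 85.5. The strand setting of the counts is not given in the sources used here.

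CLDN15 (ENSG00000106404) and CLDN16 (ENSG00000113946) also had more reads in ZDR3. Claudin-15 is a cation channel protein best known from the small intestine. Its level was 6.61 in parental cells and 13.9 in ZDR3. The ratio of these levels was 2.10, with a counting interval of 1.94 to 2.28, and the log2 ratio with the added unit was 0.97, so that CLDN15 counted as higher once the libraries were rescaled. Claudin-16 serves reabsorption of divalent cations in the thick ascending limb of the kidney. CLDN16 had few reads in both libraries and was at 0.0630 from 9 reads and 0.625 from 86 reads. The ratio of 9.92 has a counting interval of 4.99 to 22.4, and the level stayed under the minimum of 1 unit, so CLDN16 was left out of the counts.

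CLDN1 and CLDN23 were the other genes with higher levels in ZDR3. Claudin-1 is a barrier-forming claudin that is essential in the skin. CLDN1 (ENSG00000163347) was at 20.6 in parental cells and 108 in ZDR3 and had a log2 ratio of 2.33. The ratio of levels was 5.24 with a counting interval of 5.04 to 5.45. In release 29 the outer bounds of CLDN1 and CLDN16 stand 65 bases apart on opposite strands of chromosome 3. The barrier gene and the weakly detected channel gene are thus direct neighbours. The RefSeq starts used below lie much further apart. The 250 bases before them are chr3:190322447-190322696 for CLDN1, and chr3:190290111-190290360 and chr3:190387913-190388162 for CLDN16. CLDN23 (ENSG00000253958), on chromosome 8, was at 4.38 in parental cells and 10.96 in ZDR3. Its log2 ratio was 1.15, and the ratio of 2.50 had a counting interval of 2.28 to 2.75.

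The claudins with the highest parental levels per kb, CLDN7 and CLDN4, had the largest decreases. Claudin-7 is widespread in epithelia and binds the adhesion protein EPCAM. CLDN7 (ENSG00000181885) was at 641 in parental cells, from 91644 reads, and at 20.1 in ZDR3, from 2769 reads. This is a 31.9-fold lower level, with a counting interval of 30.7 to 33.1, and the log2 ratio of -4.93 ranked 68 from the bottom of the expressed genes. CLDN7 transcripts were much reduced but still readily detected in ZDR3. CLDN7 shares 38 exon bases, 1.84% of its exon length, with C17orf81 on the opposite strand, which was at 71.1 in parental cells and 85.7 in ZDR3.

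CLDN4 and CLDN3 lie side by side on chromosome 7, and both proteins are receptors of the Clostridium perfringens enterotoxin. CLDN4 (ENSG00000189143), which tightens the barrier to sodium, was at 1070 in parental cells and 177 in ZDR3. It was 6.04-fold lower, with a counting interval of 5.96 to 6.12 and a log2 ratio of -2.59. CLDN3 (ENSG00000165215), a barrier-forming claudin, was at 37.8 and 16.9. It was 2.24-fold lower, with a counting interval of 2.14 to 2.36 and a log2 ratio of -1.12. The counting intervals of these neighbours do not overlap, so the decrease of CLDN4 was larger than that of CLDN3 beyond counting error.

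CLDN12 and OCLN were lower by smaller amounts. Claudin-12 is an atypical claudin without the PDZ-binding end that ties most claudins to ZO proteins. CLDN12 (ENSG00000157224) was at 488 in parental cells and 225 in ZDR3. It was 2.17-fold lower, with a counting interval of 2.14 to 2.20 and a log2 ratio of -1.12. OCLN (ENSG00000197822) was at 80.5 and 43.8, 1.84-fold lower with a counting interval of 1.78 to 1.90, and its log2 ratio of -0.87 did not reach the limit. A pseudogene copy of each of OCLN and CLDN7, OCLNP1 and CLDN7P1, is named in the annotation but has no row in the table, so how their reads were assigned is unknown and both counts carry that uncertainty.

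Promoters of CLDN2, which had the largest increase, and of CLDN7 and CLDN3, which were lower, are shown so that their sequences can be set side by side. The windows are the 250 bases before a transcript start in RefSeq on GRCh38.p14. The authors' own genome build is not given in the sources used here. Only windows free of annotated exons are written out, and capitals mark CG dinucleotides, a feature chosen after the sequences had been seen. The lines give the second of the starts listed for CLDN2 (chrX:106918110-106918359, plus strand), CLDN3 (chr7:73770271-73770520, minus strand) and the upstream start of CLDN7 (chr17:7263214-7263463, minus strand).
CLDN2: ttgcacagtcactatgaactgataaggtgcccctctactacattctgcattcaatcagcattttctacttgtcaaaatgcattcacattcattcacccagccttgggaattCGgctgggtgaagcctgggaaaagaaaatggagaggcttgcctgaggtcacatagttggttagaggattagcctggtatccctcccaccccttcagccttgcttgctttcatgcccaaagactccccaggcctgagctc
CLDN3: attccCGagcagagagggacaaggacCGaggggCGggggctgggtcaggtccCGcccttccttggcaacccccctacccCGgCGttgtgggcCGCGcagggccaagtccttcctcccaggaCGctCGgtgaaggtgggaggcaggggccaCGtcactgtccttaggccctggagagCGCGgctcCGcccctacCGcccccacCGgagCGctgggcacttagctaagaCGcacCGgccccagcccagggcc
CLDN7: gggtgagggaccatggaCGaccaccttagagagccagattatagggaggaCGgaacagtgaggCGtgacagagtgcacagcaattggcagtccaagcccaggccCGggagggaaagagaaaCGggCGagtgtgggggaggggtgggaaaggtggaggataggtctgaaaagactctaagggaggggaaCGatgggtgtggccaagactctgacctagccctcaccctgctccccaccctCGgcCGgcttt

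The CLDN2 window held 1 CG dinucleotide, and 6.06% of the 35116 windows in the table held fewer. The other listed CLDN2 start had 0. The CLDN3 window held 19 and the CLDN7 window 9, against a median of 11 over all windows. The window of the second CLDN7 start, which lies inside CLDN7 exons, had 25. CLDN1 had 28, in a window with 150 exon bases. The windows of OCLN had 24 and 20, with 250 and 120 exon bases. CLDN4 had 4, in a window that lies wholly inside CLDN4 exons, unlike the CLDN2 window written out. With that limit, few CG dinucleotides were found both at a gene that was far higher and at one that was lower in ZDR3.

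Motifs were searched on both strands of the 13 windows that 9 of the 10 genes have in the table. The E-box letters CACCTG, which ZEB and SNAI repressors can bind, occur in 17.5% of all windows. TGANTCA occurs in 6.57% and includes the AP-1 site bound by JUN and FOS proteins, whose middle base is C or G. An E-box match was present in 3 of the 13 windows, those of OCLN and the second CLDN7 start. Matches to TGANTCA were present in 4 of the 13 windows, in CLDN2, CLDN4, CLDN15 and CLDN16. The CLDN16 match lies in the window chr3:190290111-190290360, and the other CLDN16 window had 0. The sequence just after the start of the CLDN16 window with the match was not found in the GENCODE release 29 transcripts of CLDN16. For the other windows, such sequence was found in transcripts of their genes. The middle base was T at CLDN2, A at CLDN16, G at CLDN15, and T and C at the matches of CLDN4. The grainyhead letters AACCGGTT occur in 0.117% of all windows and in 0 of these. The second CLDN7 window had 4 E-box matches, a number reached by 43 windows, or 0.122% of all. The limit of 4 is that window's own count, picked after the search, so the share describes this window only. The windows of CLDN4 and CLDN15, the second CLDN7 window and the OCLN window at chr5:69492297-69492546 lie wholly inside exons of those genes. Their matches thus lie in annotated exons. The CLDN2 window with a match shares 101 bases with RIPPLY1 exons. A match describes letters and is no evidence of binding. The matches of CLDN7 and OCLN and those of CLDN2, CLDN4 and CLDN15 are shown with a few flanking bases. The motif is in capitals, the strand is as in the gene, and AP-1 stands for any match to TGANTCA.
CLDN7 E-boxes, chr17:7262479-7262504, minus strand: tatactCAGGTGcgcccCACCTGtcc
CLDN7 E-box, chr17:7262596-7262625, minus strand: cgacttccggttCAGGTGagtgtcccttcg
CLDN7 E-box, chr17:7262635-7262664, minus strand: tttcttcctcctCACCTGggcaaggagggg
OCLN E-box, chr5:69492502-69492531, plus strand: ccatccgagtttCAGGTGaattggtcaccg
OCLN E-box, chr5:69492645-69492674, plus strand: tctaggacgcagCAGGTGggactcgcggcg
CLDN2 AP-1, chrX:106900093-106900121, plus strand: tatttttctccTGATTCAtctcatgccaa
CLDN4 AP-1, chr7:73830746-73830771, plus strand: ctgggctgTGATTCAgtgtctgtctc
CLDN4 AP-1, chr7:73830824-73830852, plus strand: agactggatagTGACTCAgggacccgggg
CLDN15 AP-1, chr7:101238004-101238032, minus strand: ccaatgaaagcTGAGTCAgagacagacgc

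Division by the exon length of each gene, taken from release 29, allowed the genes to be set against each other. In the parental library CLDN7 had 311 normalised reads per kb, CLDN4 255 and CLDN12 137. These 3 genes made up 41.1%, 33.8% and 18.1% of the summed level per kb of the 10 genes. CLDN3 followed at 29.7, OCLN at 12.3, CLDN1 at 5.93, CLDN15 at 2.77 and CLDN23 at 2.02. CLDN2 and CLDN16 were last, at 0.148 and 0.0192.

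The order was different in ZDR3. CLDN2 was first at 181 per kb and held 50.6% of the sum, against 0.0196% in the parental library. CLDN12 was second at 62.9 and kept a similar share, 17.6% beside 18.1%. CLDN4 at 42.3, CLDN1 at 31.1 and CLDN3 at 13.2 came next, and CLDN7 was sixth at 9.75, with 2.72% of the sum. OCLN at 6.68, CLDN15 at 5.83, CLDN23 at 5.05 and CLDN16 at 0.191 completed the order. The spread between cultures is unknown, so the order of close neighbours such as OCLN and CLDN15 is that of this library only.

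The summed level per kb of the 10 genes was 755 in parental cells and 358 in ZDR3, a ratio of 0.474. Without CLDN2 the sums were 755 and 177, a 4.27-fold lower level in ZDR3. The ranks of all 10 genes were the same in both libraries when the longest transcript was used as the length, with CLDN2 at 52.3% of the resistant sum and CLDN7 at 42.7% of the parental sum.

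**Figure D2:**
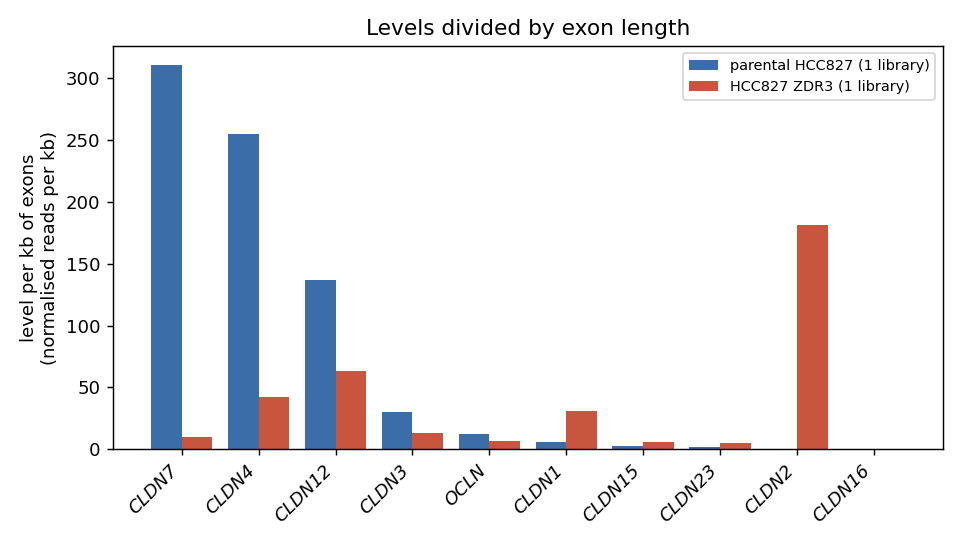
Level per kb of exons (y axis, normalised reads per kb, starting at 0) of each gene in the parental and ZDR3 libraries, 1 library each. CLDN7, CLDN4 and CLDN12 have the tallest parental bars at 311, 255 and 137, and CLDN2 has the tallest ZDR3 bar at 181.

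Each gene was also set beside its chromosomal neighbours, since a gain or loss of a chromosome segment can move adjacent genes together. For the 10 nearest expressed genes on each side, the median log2 ratio lay between -0.26, beside CLDN1, and 0.33, beside OCLN. CLDN2 exceeded its neighbours' median by 8.91 and CLDN1 by 2.59. CLDN7 was lower than its neighbours' median by a log2 difference of -4.96, CLDN4 by -2.62 and CLDN12 by -1.01. OCLN was lower by -1.19, although the neighbours of OCLN tended upward, with 14 of 20 above 0. CLDN2, CLDN4, CLDN7 and OCLN lay outside the whole range of their 20 neighbours, and the other 6 genes lay inside it.

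The nearest genes differed from the claudins in several places. LEPREL1, next to CLDN1, was itself higher, at 6.05 in parental cells and 70.8 in ZDR3, and IL1RAP on the other side was at 86.8 and 80.1. Beside CLDN2, RBM41 was at 67.9 and 26.2. ABHD11, next to CLDN3, was lower as well, at 145 and 50.6, while WBSCR27, beyond CLDN4, was at 7.97 and 5.08. YBX2, next to CLDN7, was at 7.34 and 4.03.

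CLDN12 lies between a gene with a lower and a gene with a higher level, GTPBP10 at 60.5 and 42.2 and CDK14 at 19.5 and 74.5. CDK14 and GTPBP10 overlap the CLDN12 locus on its own strand but share 0 exon bases with it. The genes next to CLDN15 barely differed, ZNHIT1 at 32.0 and 32.7 and FIS1 at 84.1 and 80.9. Next to CLDN23, AC068020.1 was at 1.43 and 2.50 and MFHAS1 at 26.6 and 30.7. The tricellulin gene MARVELD2 is the neighbour of OCLN and was at 44.8 and 37.0, with GTF2H2C on the far side at 118 and 202.

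**Figure D3:**
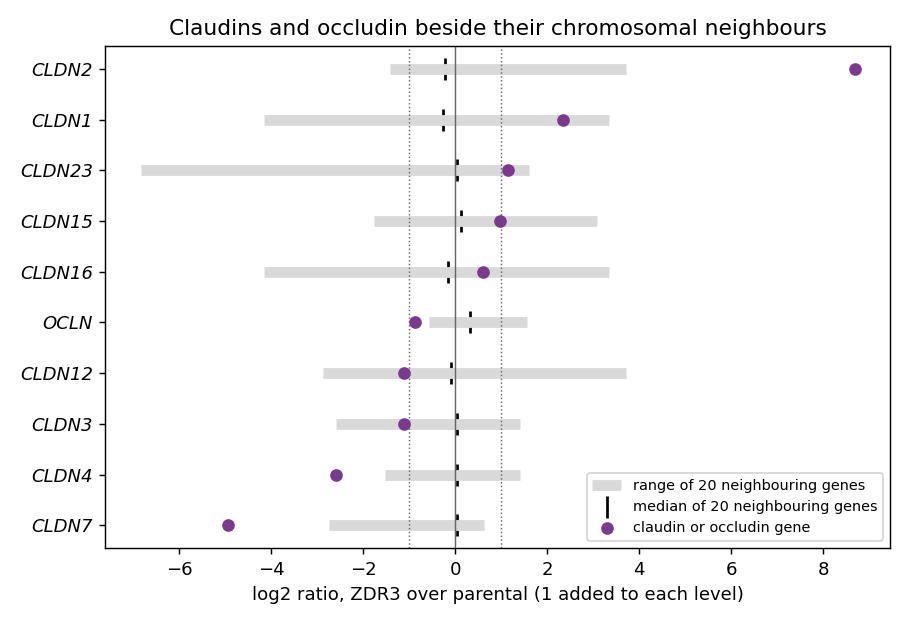
Log2 ratio of ZDR3 over parental (x axis, 1 unit added to each level) for each gene (points), with the range (grey bars) and median (black ticks) of its 20 nearest expressed neighbours. CLDN2 at 8.68 and CLDN7 at -4.93 stand far outside their neighbours' ranges, and dotted lines mark a log2 ratio of -1 and 1.

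Of 18 other claudin and claudin-like genes found in the table, 16 were under the minimum in both libraries. The 2 expressed ones were CLDND1, which encodes a claudin domain protein, at 625 in parental cells and 352 in ZDR3 (log2 ratio -0.83), and CLDN9, at 1.20 and 0.269 (log2 ratio -0.79). Neither was counted as higher or lower. CLDN18, whose lung isoform is a marker of alveolar epithelium, had 1 parental and 21 resistant reads, and the endothelial CLDN5 had 0 and 4.

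Membrane proteins that work with claudins were lower in part. Of 14 expressed partners on a list of 15, 6 were lower and 2 higher, with a median log2 ratio of -0.89. These are 42.9% and 14.3%, beside 9.68% lower and 10.6% higher over all expressed genes. MARVELD3, a relative of occludin, was at 34.6 in parental cells and 0.778 in ZDR3 (-4.32). EPCAM (-3.06), which binds and stabilises claudin-7, was lower beside the 31.9-fold lower CLDN7. F11R, the gene of the adhesion molecule JAM-A, was at 498 and 111 (-2.16).

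The angulins, which recruit tricellulin to the corners where cells meet, went both ways. LSR was at 477 in parental cells and 164 in ZDR3 (-1.53) and ILDR1 at 6.45 and 1.75 (-1.44), while ILDR2 was at 0.0840 and 5.22 (2.52). JAM3 was at 0.245 and 15.4 (3.72), in the opposite direction to F11R. MARVELD2 (-0.27) and CXADR (-0.12) differed little.

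Scaffold and polarity genes had a median log2 ratio of -0.01 over 27 expressed genes, of which 5 were lower and 4 higher. These are 18.5% and 14.8%, beside 9.68% lower and 10.6% higher over all expressed genes. The ZO scaffolds that bind claudin tails divided: TJP1, for ZO-1, was at 295 in parental cells and 207 in ZDR3 (-0.51), whereas TJP3 was at 185 and 33.9 (-2.41). Cingulin, a cytoplasmic plaque protein encoded by CGN, was at 106 and 4.62 (-4.26). The polarity scaffold gene INADL, now called PATJ, was at 301 and 99.3 (-1.59).

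The higher scaffold genes were AMOT at 0.763 in parental cells and 11.7 in ZDR3 (2.84), AMOTL1 at 27.2 and 112 (a ratio of 4.10), the junction-bound RhoA activator gene ARHGEF2 at 201 and 562 (1.48) and CSDA, which encodes the ZO-1 partner ZONAB, at 317 and 681 (1.10). The level of TJP1 was thus closer to the parental one than those of the claudins CLDN4 and CLDN7.

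**Figure D4:**
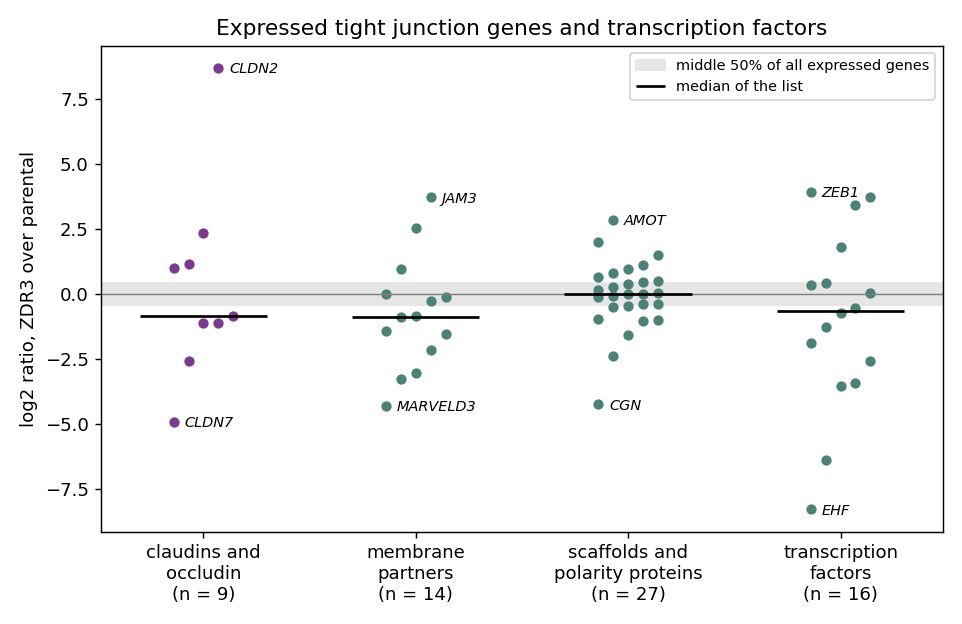
Log2 ratio of ZDR3 over parental (y axis) for each expressed gene of 4 lists, with the list median (black line) and the middle 50% of all expressed genes (grey band). The highest and lowest gene of each list are named, and the scaffold median of -0.01 lies in the band while the medians of the claudins with occludin (-0.87) and of the membrane partners (-0.89) lie below it. With CLDN16, which is under the minimum and not drawn, the median of the claudins with occludin is -0.13 and lies in the band.

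Transcription factors known to act on epithelial junction genes were described last. Of 16 expressed factors on a list of 22, 7 were lower and 4 higher, with a median log2 ratio of -0.65. These are 43.8% and 25%, beside 9.68% lower and 10.6% higher over all expressed genes. ZEB1, a repressor that binds E-boxes, was at 6.10 in parental cells and 106 in ZDR3 (3.91), its relative ZEB2 at 0.455 and 18.3 (3.73) and SNAI2 at 0.854 and 5.41 (1.79). Other repressors of the list went the opposite way. SNAI1 was at 3.95 and 1.93 (-0.76), short of the limit, and TWIST1, under the minimum, had 25 parental and 0 resistant reads. The grainyhead factor GRHL2, which maintains claudin expression in epithelia, was at 89.3 and 0.0581, from 12764 and 8 reads, and GRHL1 was at 52.6 and 3.94.

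The ETS factor gene EHF was at 375 in parental cells and 0.189 in ZDR3. OVOL1, a repressor of mesenchymal genes, had 1542 parental and 0 resistant reads, and its relative OVOL2 was at 8.20 and 0.538 (-2.58). The intestinal factor CDX2 and GATA4, both described as activators of CLDN2, had 3 and 7 resistant reads. The part of these factors in the claudin levels was not tested.

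The genes whose levels in the 2 libraries were most like those of CLDN2 were BRDT, at 0.665 in parental cells and 420 in ZDR3, ABCB1, at 0.707 and 358, and PDZK1, at 1.25 and 404. For CLDN7 they were CP at 476 and 17.7, TMC5 at 460 and 23.9 and PTK2B at 476 and 26.4. Likeness was the distance between genes on the log2 scale of both levels with 1 unit added, 0.574 for BRDT and 0.465 for CP. It rests on 2 values a gene and is a weak measure.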

How the data were processed

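The table deposited by the authors lists 20985 genes with a log2 value for each library. Its name calls the values RPKM, but every back-transformed value was a whole number of reads times a factor fixed for that library (0.00700 parental, 0.00727 resistant), so gene length was not divided out. Of values up to 100000 reads, 100% were whole within 0.1 read. Genes at the column minimum were set to 0. Per the submitters' processing notes, TopHat was used. Which version, genome build and counting tool were used is not given in the sources used here.

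With 1 library per group no test was possible and count models were not used. A pseudocount of 1, a minimum level of 1 and a 2-fold limit were applied, and intervals were computed with scipy 1.17.1. The labels mention no molecular identifiers, so reads need not be independent molecules. Gene order and exon length came from GENCODE release 29 by Ensembl identifier. The fold count and intervals were also run on simulated counts that held counting error alone. That check does not bear on the spread between cultures.

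All 10 genes were named. In other lists the named genes were a fixed few, with up to 6 further genes of largest absolute log2 ratio; the nearest neighbours and the 3 most similar genes were also named. The members and lists were chosen with earlier results of these data known. CLDN18, CLDN5, KRT7, SFTPB, CD79A, COL1A1, CXADR, SNAI1, TWIST1, CDX2 and GATA4 stand outside or partly outside that rule, as do the reads of RIPPLY1, and were picked after their values were seen. A few genes covered by this rule are not reported here, though list counts and medians include them. Protein sequences were not used here.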

Additional observations from a re-analysis of the deposited data

How the results depend on the processing

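Alternatives were pseudocounts of 0.1 and 5, centring on the median gene, upper quartile scaling, no minimum level, a minimum level of 5 and, added after seeing the data, levels per kb of exons. The count of higher genes ranged from 2 to 4 and that of lower genes from 3 to 4. Over all genes counted under the same settings, the share moved as well. It ranged from 6.54% to 12.4% for higher genes and from 6.28% to 11.4% for lower genes. Both shares were smallest with a pseudocount of 5 and largest with a pseudocount of 0.1. CLDN1, CLDN2, CLDN4, CLDN7 and CLDN12 were counted in the same direction under each of these alternatives. With a pseudocount of 5, CLDN23 and CLDN3 fell short of the limit, and CLDN15 passed it with a pseudocount of 0.1 and under both other scalings. The median log2 ratio of the set, -0.87, was -0.81 with a pseudocount of 5, -0.81 with upper quartile scaling, -0.79 per kb and -0.13 without a minimum level, where CLDN16 enters. All 50 single-gene values kept their sign. No paired analysis was possible because each group has 1 library, and for the same reason no library could be left out.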
